A study of Homo sapiens with 4 samples.

Results

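Human pluripotent stem cells (hPSC) that carried much RNA of DNA replication genes and little RNA of mitosis genes were described here. They were picked from 1 single-cell library by 2 scores: the S score is the share of a cell's UMIs (counts of distinct captured RNA molecules) from 16 replication genes, and the M score is the share from 6 mitosis genes. Members had an S score in the top 20% and an M score at or below the median, and are called S-high. They numbered 1845 of the 13862 hPSC cells with at least 3000 UMIs and at most 20% mitochondrially encoded UMIs, which is 13.3%, and the 2 transcriptome libraries held 31693 cell barcodes in all. They were set beside 1175 cells of the same library with an S score in the bottom 20% and an M score at or below the median, called S-low (8.48% of the kept cells).

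The S-high and S-low cells came from 1 culture, so they share its treatments, apart from the guide that a cell carries. Per the labels these were H9 cells, an established human embryonic stem cell line, infected with a lentivirus that carries a guide RNA, a guide barcode and an EGFP gene behind the EF1α promoter, and with another that carries Cas9 and mCherry. They were sorted on fluorescence and left to recover for a week, and a sister culture was induced towards ectoderm. Each culture gave 1 transcriptome library and 1 amplicon library that ties cell barcodes to guide barcodes, and the guide pool makes the culture a mixture of cells with different targeted genes. In a check of expression against the labelled line, 2 of 2 transcriptome libraries did not match it.

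In S phase a cell copies its DNA once. Origins are first licensed, when the origin recognition complex, CDC6 and CDT1 load the ring of MCM2 to MCM7 onto DNA. In S phase the ring is joined by CDC45 and the GINS complex to form the helicase, PCNA is the sliding clamp of the polymerases, and ribonucleotide reductase and thymidylate synthase feed the nucleotide pool. Many of these genes are turned on by E2F transcription factors late in G1, and replication-linked histone genes are used when new DNA is packed. Pluripotent stem cells are known for a short G1 and for a large share of cells in S phase.

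The E2F type of promoter is shown here because it is the best known shared feature of genes used at this point of the cycle. Sequences are the 170 bases before the annotated start in RefSeq on GRCh38.p14, in the sense of the gene, and end at the last base before the start. Capitals mark each match on either strand to TTTCCCGC, TTTGGCGC, TTTGCCGC or TTTCGCGC, and a match on the other strand is printed as its reverse complement, such as GCGGGAAA for TTTCCCGC. Neighbouring matches can overlap. Every gene shown holds a match, and of its RefSeq entries the first that holds one is printed. UHRF1 has 3 entries and PCNA 2. MCM6, PCNA and GINS2 belong to the S score, and CDC25A, UHRF1 and DTL do not.
MCM6: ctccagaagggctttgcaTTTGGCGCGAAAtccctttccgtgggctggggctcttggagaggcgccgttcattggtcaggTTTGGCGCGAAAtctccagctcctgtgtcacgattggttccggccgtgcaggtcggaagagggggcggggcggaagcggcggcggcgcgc
PCNA: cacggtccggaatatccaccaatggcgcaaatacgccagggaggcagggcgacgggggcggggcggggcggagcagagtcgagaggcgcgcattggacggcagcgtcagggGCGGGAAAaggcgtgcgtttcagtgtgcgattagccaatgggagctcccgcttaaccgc
GINS2: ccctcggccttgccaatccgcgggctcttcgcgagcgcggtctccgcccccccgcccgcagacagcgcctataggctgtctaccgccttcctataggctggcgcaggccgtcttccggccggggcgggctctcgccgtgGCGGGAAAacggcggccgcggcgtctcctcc
CDC25A: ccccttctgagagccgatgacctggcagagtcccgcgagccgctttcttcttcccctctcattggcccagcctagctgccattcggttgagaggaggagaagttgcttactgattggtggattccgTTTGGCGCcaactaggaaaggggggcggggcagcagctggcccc
UHRF1: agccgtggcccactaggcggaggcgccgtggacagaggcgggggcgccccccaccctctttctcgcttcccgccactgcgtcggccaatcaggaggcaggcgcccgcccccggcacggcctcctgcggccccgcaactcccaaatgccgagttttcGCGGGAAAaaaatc
DTL: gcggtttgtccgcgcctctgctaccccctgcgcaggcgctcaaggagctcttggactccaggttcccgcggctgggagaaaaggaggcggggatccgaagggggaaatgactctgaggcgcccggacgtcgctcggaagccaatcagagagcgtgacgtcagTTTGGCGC
The MCM6 window lies at chr2:135876444-135876613 on the minus strand and holds 4 matches in 2 overlapping pairs, the outer ones starting at -152 and -86. The PCNA window is chr20:5126623-5126792 (minus), the GINS2 window chr16:85688955-85689124 (minus) and the CDC25A window chr3:48188418-48188587 (minus). UHRF1 is at chr19:4909331-4909500 (plus) and DTL at chr1:212035578-212035747 (plus). Their single matches start at -59 in PCNA, -31 in GINS2, -44 in CDC25A, -14 in UHRF1 and -8 in DTL.

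In the 250 bases before the start, 7 of the 14 S score genes with a RefSeq promoter entry held such letters, against 0 of the 5 M score genes with an entry. Among genes outside both scores, 18 of the 97 matched genes that were at least 1.5-fold higher in S-high cells held them (18.6%), and 0 of the 12 matched genes that were at least 1.5-fold lower. The share was 289 of 4824 among all matched genes counted in hPSC (5.99%) and 928 of 27305 symbols in the whole promoter table (3.40%). A gene with several entries was counted where any of them held a match. A match is a run of letters, not a site shown to be bound.

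The rule set the following values, which are a description. The S score was at least 17.85 per 10000 UMIs in S-high cells, with a median of 21.68 and a highest value of 46.2, and at most 7.40 in S-low cells, with a median of 5.05. The M score cut was 6.37 per 10000. The lowest S-high cell stood at 17.8485 and the highest cell just outside, at or below the M median, at 17.8412, so the members are one end of a range and not a separate class. S-high cells had UMIs of a median of 7 of the 16 score genes (3 to 14), and S-low cells of 2 (0 to 8), with 109 S-low cells (9.28%) at 0 for all 16.

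**Figure D1:**
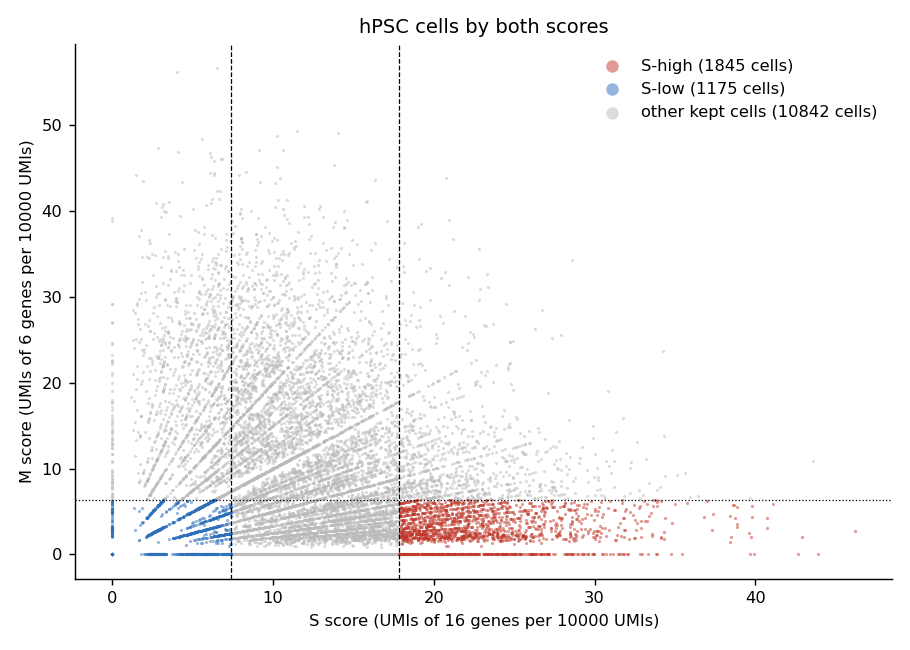
Each point is 1 of 13862 hPSC cells; the x axis is the S score and the y axis the M score, both per 10000 UMIs. Dashed lines are the S score cuts at 17.85 and 7.40 and the dotted line the M score median of 6.37; S-high cells (1845) are the lower right block and S-low cells (1175) the lower left block of one continuous cloud.

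The 16 score genes were higher in S-high than in S-low cells, which the rule brings about. MCM2 stood at 69.4 CPM (UMIs per 1000000 of the summed UMIs of a group) in S-high cells and 12.2 CPM in S-low cells, MCM5 at 82.9 and 15.2, PCNA at 255 and 49.0, CDC6 at 86.2 and 13.5, and CLSPN at 74.2 and 13.5. The 5 S phase markers together came to 567 CPM in S-high cells, 103 CPM in S-low cells and 296 CPM in all kept cells. Log2 ratios of the score genes ran from 2.87 for CDC45, a helicase subunit, to 1.69 for TYMS, thymidylate synthase.

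To see how large the ratios are when a gene takes no part in the choice, the 16 genes were split. With cells chosen on MCM2 to MCM7 alone, the other 10 genes had a median log2 ratio of 0.58, from 0.11 for TYMS to 0.70 for CDC6. CDC6 then stood at 63.0 CPM in 1809 high cells and 38.9 CPM in 1131 low cells (log2 ratio 0.70, 95% interval 0.46 to 0.93), and TYMS at 93.3 and 86.5 CPM (0.11, -0.06 to 0.28). With cells chosen on those 10 genes, MCM2 to MCM7 had a median of 0.65, from 0.46 for MCM3 to 0.80 for MCM2. The held-out ratios were far smaller than those of the same genes when they took part in the choice. The same check in the ectoderm library gave medians of 0.82 and 0.62.

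The depth of both groups differed somewhat. The median cell had 4804 UMIs and 2057 genes in S-high, 4120 UMIs and 1789 genes in S-low, and 5040.5 UMIs in all kept hPSC cells. The summed UMIs were 9571174 in S-high and 5262428 in S-low cells. The mitochondrial share was alike, with medians of 4.30% and 4.31%, and 0 cells of either group had over 20000 UMIs. No doublet caller was run. The libraries shared 78 barcodes, of which 8 belonged to S-high cells. With 1 library a state there are no replicates. Each 95% interval below covers counting error only (exact Poisson for a level, exact conditional binomial for a log2 ratio, Clopper-Pearson for a share), no p-value is given, and differences were read by a rule of size.

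Pluripotency markers were present in both groups and markers of other cell types were low. The 8 pluripotency markers summed to 3844 CPM in S-high cells and 4068 CPM in S-low cells, with none at 0. Neural ectoderm markers summed to 87.2 and 91.2 CPM, mesoderm markers to 31.9 and 49.6 CPM with HAND1 at 0 in both and TBXT in S-high cells, endoderm markers to 9.30 and 7.22 CPM with SOX17 and GATA6 at 0 in both, and amnion and trophoblast markers to 11.2 and 11.97 CPM with ISL1 and CGA at 0 in both. Of the mesoderm markers, KDR alone gave 25.3 CPM in S-high and 42.2 CPM in S-low cells. The sums were 18.3 and 20.5 CPM for neural crest, 45.7 and 46.0 CPM for neuron, 33.0 and 32.7 CPM for fibroblast, 0.104 and 0 CPM for endothelium and blood, and 10882 and 11578 CPM for genes of dying cells.

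Outside the scores, the genes with more RNA in S-high than in S-low cells included many of replication, histones, repair and G1/S control, as the lists below show. Of 5897 genes with at least 20 CPM in either group, 114 were at least 1.5-fold higher in S-high cells (percent called 1.93%) and 19 at least 1.5-fold lower (0.322%). At 2-fold the counts were 24 and 0. The median log2 ratio over all counted genes was 0.06, with 62.4% above 0. The 15 highest were H1-5, UHRF1, WDR76, H1-4, H3C2, DTL, MCM10, BRCA1, CDC25A, E2F7, FBXO5, H1-3, ATAD2, BLM and KNTC1. With each cell thinned to 3000 UMIs before scoring, 48 genes were higher and 9 lower, and with ribosomal protein and mitochondrially encoded genes left out of the total, 152 were higher and 44 lower.

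Genes of origin licensing were read first. Of 12 measured at 5 CPM or more, 6 were at least 1.5-fold higher and 0 lower, with a median log2 ratio of 0.58, where over all 10524 genes at that minimum 4.43% were higher, 1.67% lower and the median was 0.06. MCM10, which helps to start the loaded helicase, stood at 64.6 CPM in S-high and 24.9 CPM in S-low cells (log2 ratio 1.38, 1.10 to 1.66). GMNN, whose protein geminin holds back CDT1 once S phase has begun, stood at 111 and 64.2 CPM (0.78, 0.61 to 0.97). The origin recognition subunits differed among themselves: ORC1 and ORC6 had log2 ratios of 0.65 and 0.63, and ORC2 and ORC4 of 0.19 and -0.07, the last with an interval of -0.31 to 0.18.

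Genes of the moving fork followed. In the fork and helicase list 9 of 14 were higher and 0 lower, with a median of 0.70. GINS3, a subunit of the GINS complex like the score gene GINS2, stood at 6.90 CPM in S-high and 2.28 CPM in S-low cells (1.60, 0.70 to 2.62). TIPIN, a fork protection factor, had 34.7 and 18.1 CPM (0.94), while its partner TIMELESS had 59.4 and 50.7 CPM (0.23, 0.02 to 0.44). Among polymerase and primase subunits 6 of 13 were higher and 0 lower, with a median of 0.49. POLA2, an accessory subunit of the polymerase that starts new strands, had 16.5 and 6.46 CPM (1.35, 0.81 to 1.93), and POLD3, an accessory subunit of polymerase delta, 40.7 and 20.1 CPM (1.02). POLD1, the catalytic subunit of the same polymerase, had 8.99 and 9.88 CPM (-0.14, -0.65 to 0.39).

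Of the clamp loader, strand maturation and RPA genes 3 of 14 were higher and 0 lower (median 0.36). FEN1, the nuclease that trims the flaps of lagging-strand fragments, stood at 114 CPM in S-high and 60.8 CPM in S-low cells (0.91, 0.73 to 1.09). RPA3, a subunit of the single-strand binding protein, had 220 and 198 CPM (0.16). In nucleotide synthesis 2 of 15 were higher and 0 lower (median 0.29). One of these was TK1, thymidine kinase, at 32.5 CPM in S-high and 18.6 CPM in S-low cells (0.80, 0.47 to 1.15), which was 0.56 after thinning and 0.15 in cells of at least 5000 UMIs. The enzymes of purine synthesis PAICS and IMPDH2 had ratios of 0.06 and -0.07. Members of these lists thus differed widely, from ratios near 0 to 0.91 for FEN1 among the genes named.

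**Figure D2:**
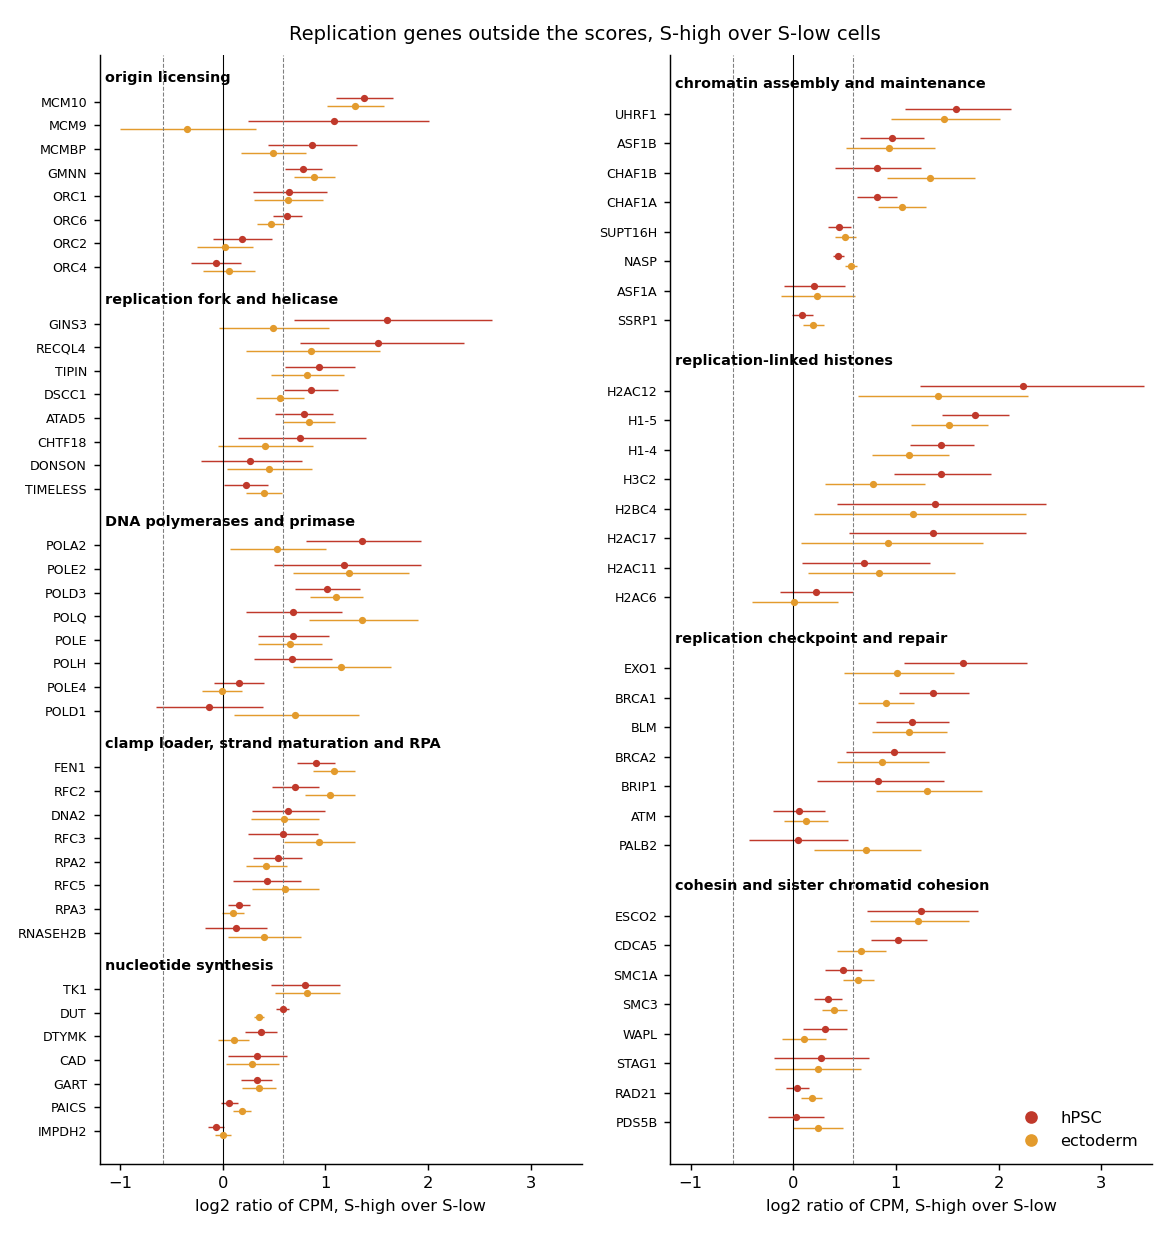
Log2 ratios of CPM, S-high over S-low, for up to 8 genes of each replication list (chosen among the 6 largest and 2 smallest in size), in hPSC (red, upper) and ectoderm (orange, lower) with 95% counting intervals. Dashed lines mark 1.5-fold; most hPSC points lie right of 0, with MCM10 at 1.38, UHRF1 at 1.59 and H1-5 at 1.77.

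The replication-linked histones were the list with the highest median, 1.17, with 15 of 16 measured genes higher and 0 lower. H1-5, a linker histone, stood at 59.4 CPM in S-high and 17.5 CPM in S-low cells (1.77, 1.45 to 2.10). H1-3 had 118 and 50.5 CPM (1.23), H3C2 23.7 and 8.74 CPM (1.44), and H4C3, a core histone gene that was chosen after its values were seen, 409 and 208 CPM (0.98, 0.88 to 1.07). The list's median was 0.77 after thinning and H4C3 then stood at 0.57, inside 1.5-fold. H2AC6 was the exception at 21.7 and 18.6 CPM (0.22, -0.13 to 0.58). The library was made from polyA RNA, while most replication-linked histone messages end in a stem-loop and not in a polyA tail, so these values cover the part of their RNA that such a library captures. Histone genes come in near-identical copies, and how their shared reads were divided is not given in the sources used here.

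Per cell, with each cell thinned to 3000 UMIs, S-high cells held 2.43 ± 2.12 histone UMIs (SD over 1845 cells) and S-low cells 1.13 ± 1.53 (1175 cells), against 1.61 in all kept cells. No histone UMI was seen in 19.7% of S-high and 45.7% of S-low cells. The spread within each group was larger than the difference of means. For the 128 replication-list genes outside the scores the thinned sums were 39.8 ± 7.36 UMIs per S-high cell and 31.5 ± 8.10 per S-low cell.

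Proteins that pack and copy chromatin came next. In chromatin assembly and maintenance 4 of 16 genes were higher and 0 lower (median 0.35). UHRF1, which reads half-methylated DNA behind the fork, stood at 22.3 CPM in S-high and 7.41 CPM in S-low cells (1.59, 1.09 to 2.12). CHAF1A and CHAF1B, subunits of the histone chaperone CAF-1, had ratios of 0.81 and 0.82. NASP, a histone chaperone, had 957 and 706 CPM (0.44), and SSRP1, a subunit of the FACT complex, 241 and 227 CPM (0.09, -0.01 to 0.19). Of the cohesin genes 2 of 12 were higher and 0 lower (median 0.22): ESCO2, which acetylates cohesin in S phase, at 1.24, and CDCA5, whose protein sororin holds sister chromatids together, at 1.02. The cohesin ring subunits SMC3 and RAD21 had ratios of 0.34 and 0.04.

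Among checkpoint and repair genes 10 of 27 were higher and 0 lower (median 0.45). BRCA1, a homologous recombination factor, stood at 43.6 CPM in S-high and 16.9 CPM in S-low cells (1.37, 1.03 to 1.71). EXO1, a resection nuclease, had 17.3 and 5.51 CPM (1.65, 1.08 to 2.28). The damage kinase ATM had 40.4 and 38.96 CPM (0.05, -0.19 to 0.31). In the E2F and G1/S list 10 of 26 genes were higher and 0 lower (median 0.38). E2F8 and E2F7, which are among the E2F proteins that repress, had ratios of 2.10 and 1.26, and E2F1, an activator, of 1.01. The ratio of E2F8 rests on few UMIs in S-low cells. CCNE1, the cyclin E of the G1/S step, stood at 23.6 and 11.6 CPM (1.03, 0.61 to 1.46), and CDC25A, the phosphatase that activates its kinase, at 73.3 and 29.6 CPM (1.31). CDK4 and CDKN1B had ratios of -0.02 and 0.00.

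The S score was then cut into 5 bins among cells at or below the M median. H1-3 stood, from bin 1 (S-low) to bin 5 (S-high), at 50.5, 67.1, 75.2, 98.2 and 118 CPM, and FEN1 at 60.8, 79.8, 81.1, 100 and 114 CPM. UHRF1 stood at 7.41 CPM in bin 1, 14.4 CPM in bin 3, 21.6 CPM in bin 4 and 22.3 CPM in bin 5. RNA of the linker histones H1-3 and H1-5 did not go with the M score. M-high cells were the 1899 cells with an M score in the top 20% and an S score at or below the median. There H1-3 stood at 16.9 CPM and H1-5 at 10.2 CPM, below S-low cells. FBXO5, whose protein EMI1 inhibits the anaphase-promoting complex, went otherwise, with 69.5 CPM in S-high, 29.5 CPM in S-low and 76.9 CPM in those M-high cells. Its ratio of 1.24 was 0.46 in cells of at least 5000 UMIs and 0.37 without the M score condition.

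**Figure D3:**
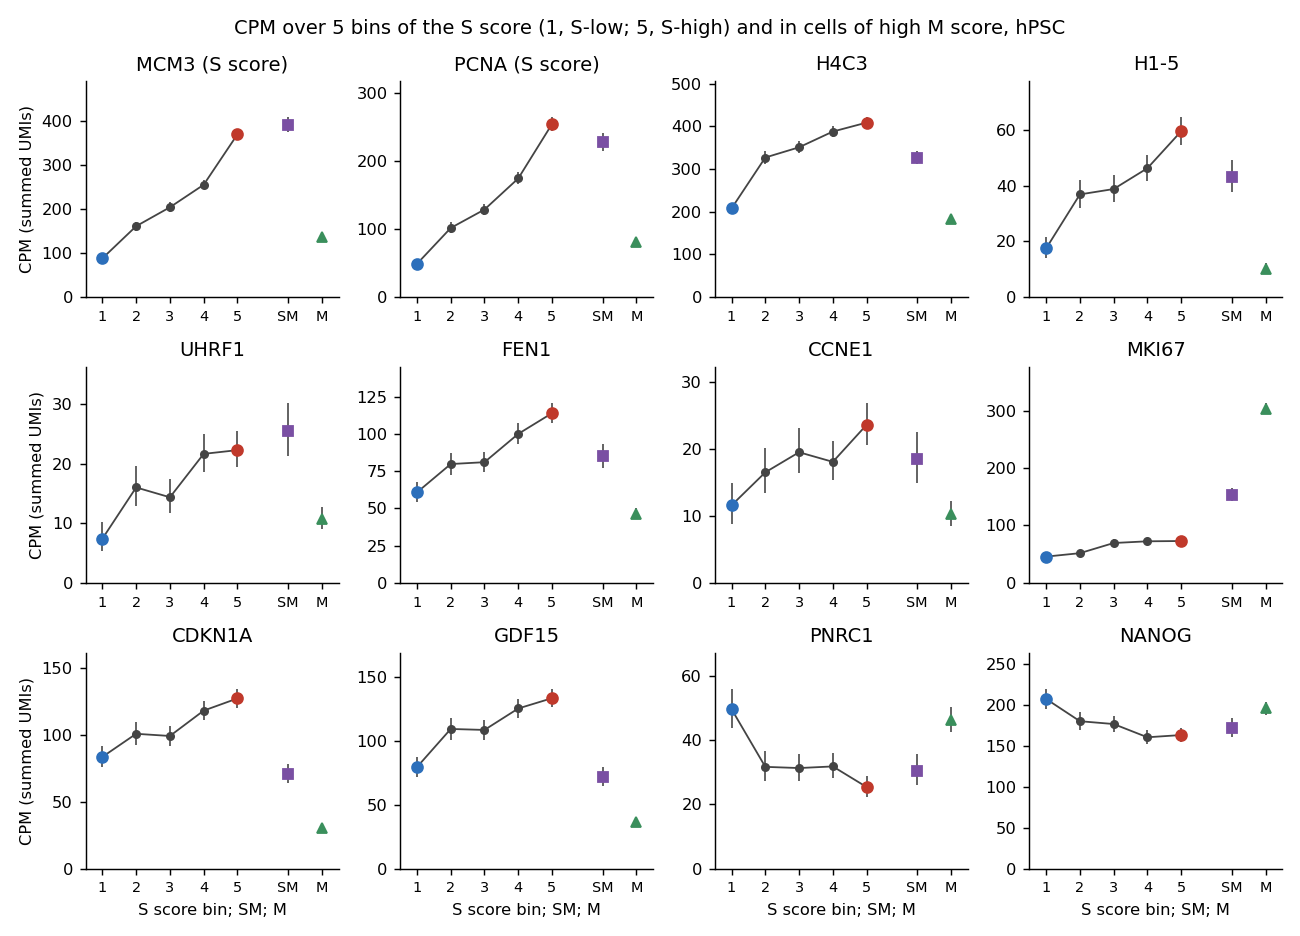
CPM of 12 genes in hPSC cells over 5 bins of the S score (1 is S-low, blue; 5 is S-high, red) and, to the right, in 928 S-high cells with an M score above the median (SM, squares) and 1899 M-high cells (M, triangles), with 95% Poisson intervals. MCM3 and PCNA are score genes; H1-5 goes up over the bins to 59.4 CPM and is at 10.2 CPM in M-high cells, while MKI67 is at 304 CPM there.

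Genes of G2 and M phase outside the M score were in part higher too, although the rule held the M score low in both groups. Of 39, 8 were higher and 0 lower, with a median of 0.22. NCAPG and SMC4, subunits of condensin, had ratios of 0.89 and 0.77, and MKI67, a proliferation marker, stood at 72.9 CPM in S-high and 45.8 CPM in S-low cells (0.67, 0.46 to 0.89), against 304 CPM in M-high cells. DLGAP5 and HMMR, spindle proteins, had ratios of 0.01 and -0.01. After thinning to 3000 UMIs the list's median was -0.02 and MKI67 was at 0.19, and in cells of at least 5000 UMIs they were at -0.10 and 0.21. Without the M score condition both turned round, to -0.73 and -0.74.

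Among pluripotency factors the median was 0.01, with 1 of 18 higher and 0 lower. That one, PRDM14, had 5.33 CPM in S-high and 3.42 CPM in S-low cells (0.64), with an interval of the log2 ratio that includes 0. NANOG stood at 163 and 207 CPM (-0.34, -0.46 to -0.23), and over the 5 bins at 207, 180, 177, 160 and 163 CPM. POU5F1 and SOX2, core pluripotency factors, had ratios of -0.19 and -0.22. DNMT3B, a de novo DNA methyltransferase, had 324 and 251 CPM (0.37, 0.28 to 0.47). All of these lie inside 1.5-fold except PRDM14.

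The lower side was short and held no list as a whole. The 15 lowest were PNRC1, PHLDA1, ZNF608, AL591742.2, ADM, CLDN3, MMP16, CREBRF, CNNM2, KDR, C9orf135, TAGLN, TTBK2, JUN and RGS14. PNRC1, a nuclear receptor coactivator, had 25.4 CPM in S-high and 49.6 CPM in S-low cells (-0.97, -1.22 to -0.71), and 31.7, 31.3 and 31.8 CPM in the 3 bins between. TAGLN, an actin-binding protein, had 68.5 and 109 CPM (-0.67), and was inside 1.5-fold at -0.28 after thinning. The immediate early genes JUN and FOS had ratios of -0.64 and -0.60, and with TAGLN they were the 3 of 18 that were lower in the immediate early and cytoskeletal list, where 0 were higher and the median was -0.06. MYC stood at 75.2 and 111 CPM (-0.56, -0.72 to -0.40), just inside 1.5-fold, while 0 of the 14 genes of the MYC and nucleolar list were past it and the median was 0.14.

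Over all genes at 5 CPM or more, 6396 of 10524 had a ratio above 0. Glycolysis and hypoxia genes had a median of -0.19, below the value over all genes, with 4 of 18 above 0. In that list 0 were past 1.5-fold higher and 1 lower, ADM, a secreted peptide induced by hypoxia, at -0.84, which was inside 1.5-fold at -0.50 in cells of at least 5000 UMIs, at -0.51 with MCM2 to MCM7 as the score and at -0.57 without the M score condition. PGK1, a glycolytic enzyme, stood at 882 CPM in S-high and 1139 CPM in S-low cells (-0.37). Cytosolic ribosomal proteins had a median of -0.09 with ratios from -0.16 to 0.02, and mitochondrially encoded genes of 0.01. In neither of these was any of the 20 and 12 genes past 1.5-fold. Medians were 0.04 for cholesterol synthesis (1 of 17 higher), 0.13 for ATF4 and ER stress (1 of 14 higher and 1 lower), 0.07 for heat shock (0 of 15), -0.03 for Nodal and FGF response (1 of 14 higher and 2 lower) and -0.13 for BMP response (0 of 4).

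**Figure D4:**
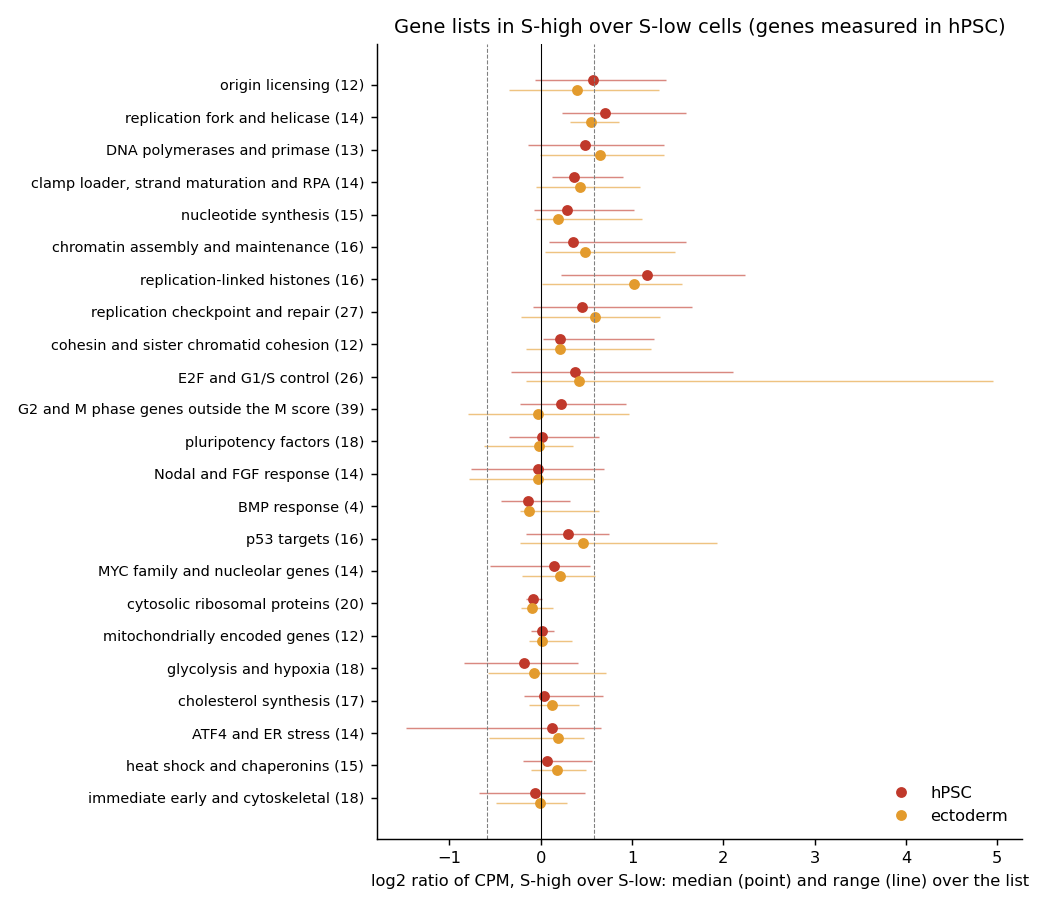
Median (point) and range (line) of log2 ratios of CPM, S-high over S-low, for 23 gene lists in hPSC (red, upper) and ectoderm (orange, lower). Dashed lines mark 1.5-fold; in hPSC the replication-linked histones are farthest right at 1.17, and the lists from pluripotency down have medians between -0.19 and 0.30.

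The p53 target genes had a higher median than these lists. Of 16, 3 were higher and 0 lower, with a median of 0.30. GDF15, a secreted stress cytokine, stood at 133 CPM in S-high and 79.4 CPM in S-low cells (0.75, 0.59 to 0.91), CDKN1A, whose protein p21 inhibits cyclin-dependent kinases, at 127 and 83.4 CPM (0.61, 0.45 to 0.77), and PLK2, a polo-like kinase, at 24.97 and 15.96 CPM (0.65). MDM2, the ligase that degrades p53, had 131 and 92.5 CPM (0.50), and BAX, a promoter of cell death, 421 and 415 CPM (0.02, -0.06 to 0.10). After thinning GDF15 was at 0.51 and CDKN1A at 0.50, both inside 1.5-fold, and with MCM2 to MCM7 as the score at 0.22 and 0.17. CDKN1A was lower in cells with the M score up: 127 CPM in S-high cells, 70.8 CPM in S-high cells with an M score above the median and 30.7 CPM in M-high cells. GDF15 had 133, 71.5 and 36.5 CPM in the same order.

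S-high cells were also split by their own histone RNA, which the rule did not use, into 763 histone-rich cells (over 2 histone UMIs of 3000) and 1082 histone-poor cells. The S score was the same in both, with medians of 21.70 and 21.66 per 10000, and its genes had a summed log2 ratio of -0.01, histone-rich over histone-poor (-0.06 to 0.04). The histones used for the split were left out of the genes counted. Of 3019 other genes at 50 CPM or more, 4 were at least 1.5-fold higher in the histone-rich cells (0.132%) and 1 lower (0.0331%). Of 12 p53 targets at that level 2 were higher and 11 had a ratio above 0, with a median of 0.37. Among the 3019 genes, 1555 had a ratio above 0. GDF15 stood at 177 CPM in histone-rich and 90.6 CPM in histone-poor cells (0.97, 0.75 to 1.19), CDKN1A at 145 and 101 CPM (0.52, 0.29 to 0.74), MDM2 at 159 and 106 CPM (0.58, 0.36 to 0.79), and SESN2, a stress-induced regulator, at 63.8 and 38.2 CPM (0.74). BAX and RPS27L had ratios of 0.09 and -0.03. This split, and RPS27L as an example, were chosen after the values were seen.

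The p53 list was read in the other cells too, with a different cut for some groups. In both libraries histone-rich meant over 2 histone UMIs in S-high cells and over 1 in S-low and M-high cells. Its summed log2 ratio, histone-rich over histone-poor, was 0.21 in S-high cells (0.16 to 0.27), 0.21 in S-low cells (0.13 to 0.29) and 0.02 in M-high cells (-0.06 to 0.09). In the ectoderm library it was 0.12 in S-high cells (0.06 to 0.19), 0.30 in S-low cells (0.20 to 0.39) and 0.08 in M-high cells (0.01 to 0.15). In both libraries M-high cells had the smallest value, and S-high cells did not have the largest in ectoderm. These sums cover different genes, because the minimum of 50 CPM was applied within each group. It was met by 12, 9 and 6 p53 targets in S-high, S-low and M-high hPSC cells, and by 5, 5 and 4 in ectoderm. GDF15, at 35.6 and 37.6 CPM in histone-rich and histone-poor M-high hPSC cells, fell below it. The values thus do not rank 1 set of genes across groups. Median depth before thinning was 5114 UMIs in histone-rich and 4535 in histone-poor S-high hPSC cells. It was 4569.5 and 3985 UMIs in S-low and 6140 and 6222.5 in M-high hPSC cells. In ectoderm it was 4459 and 4276 in S-high, 4344 and 3782 in S-low, and 5174 and 5397 in M-high cells. Histone-rich cells were thus deeper in S-high and S-low but not in M-high cells, and the part of depth in the result was not tested.

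The same rule was applied to the ectoderm library, where it gave 1930 S-high and 1041 S-low cells out of 13298. There 133 of 5976 genes were at least 1.5-fold higher (2.23%) and 16 lower (0.268%). Of the 114 genes higher in hPSC, 95 were counted in ectoderm and 93 of these had a ratio above 0. Over all genes counted in ectoderm, 63.2% had a ratio above 0. The 2 lists of higher genes shared 56 genes, 49.1% of the hPSC list and 42.1% of the ectoderm list. Of the 19 genes lower in hPSC, 11 were counted in ectoderm, 8 had a ratio below 0 and 1 was also lower past 1.5-fold (5.26% of the hPSC list and 6.25% of the ectoderm list). No gene was past 1.5-fold in opposite directions. The states differ in culture and in guide pool, and no test was made between them.

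Side by side, UHRF1 had ratios of 1.59 in hPSC and 1.47 in ectoderm, MCM10 1.38 and 1.29, and CCNE1 1.03 and 1.30. Values differed more for H4C3, 0.98 in hPSC (0.88 to 1.07) and 0.58 in ectoderm (0.49 to 0.66), and for the G2 and M list, whose median was 0.22 and -0.03 with 0 and 4 genes lower (over all genes of the ectoderm library at the list minimum 4.41% were higher and 1.49% lower). TAGLN had -0.67 in hPSC and 0.06 in ectoderm, JUN -0.64 and 0.23, and MYC -0.56 and 0.06. CDKN1A, at 127 and 83.4 CPM in hPSC, stood at 27.9 CPM in S-high and 12.4 CPM in S-low ectoderm cells (1.17, 0.78 to 1.58). The p53 target list had a median of 0.30 in hPSC and 0.46 in ectoderm. In ectoderm 5 of its 16 genes were higher and 0 lower, against 3 of 16 and 0 in hPSC.

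The transgenes and guides were the last readout. EGFP RNA stood at 4165 CPM in S-high and 4505 CPM in S-low cells (-0.11, -0.14 to -0.09). CAS9 RNA gave 71 and 25 UMIs (0.64, -0.03 to 1.36) and MCHERRY RNA 5 and 2 UMIs. A cell was given a guide where exactly 1 guide had at least 20 amplicon UMIs, which left 11205 of the 13862 cells without one. The hPSC amplicon table ends at the row limit of a common spreadsheet, so guides of some cells may be missing from it. S-high cells were 317 of 2462 cells with targeting guides (12.9%, 11.6 to 14.3) and 29 of 195 with non-targeting guides (14.9%, 10.2 to 20.7), and 13.4% of the 11205 cells with no guide assigned. S-low cells were 7.03% and 9.23% of cells with targeting and non-targeting guides. The intervals for targeting and non-targeting guides overlap, and their difference was not tested.

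Among the 19 targets with at least 40 assigned cells the S-high share ran from 4.88% to 30.4%. The highest was KRTAP4-11, a keratin-associated protein gene, with 14 of 46 cells (17.7 to 45.8), and the lowest APRT, a purine salvage enzyme, with 2 of 41 (0.596 to 16.5). KRTAP4-11 lies above the interval of non-targeting guides, and APRT, ACACA, MT1H, YAP1, TTLL12, PGLS and SRM lie below it. KRTAP4-11 is the largest of 19 values read without a test, and cells of a guide are not replicates. Guides against MCM4, a gene of the score, were assigned to 20 cells, of which 3 were S-high.

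**Figure D5:**
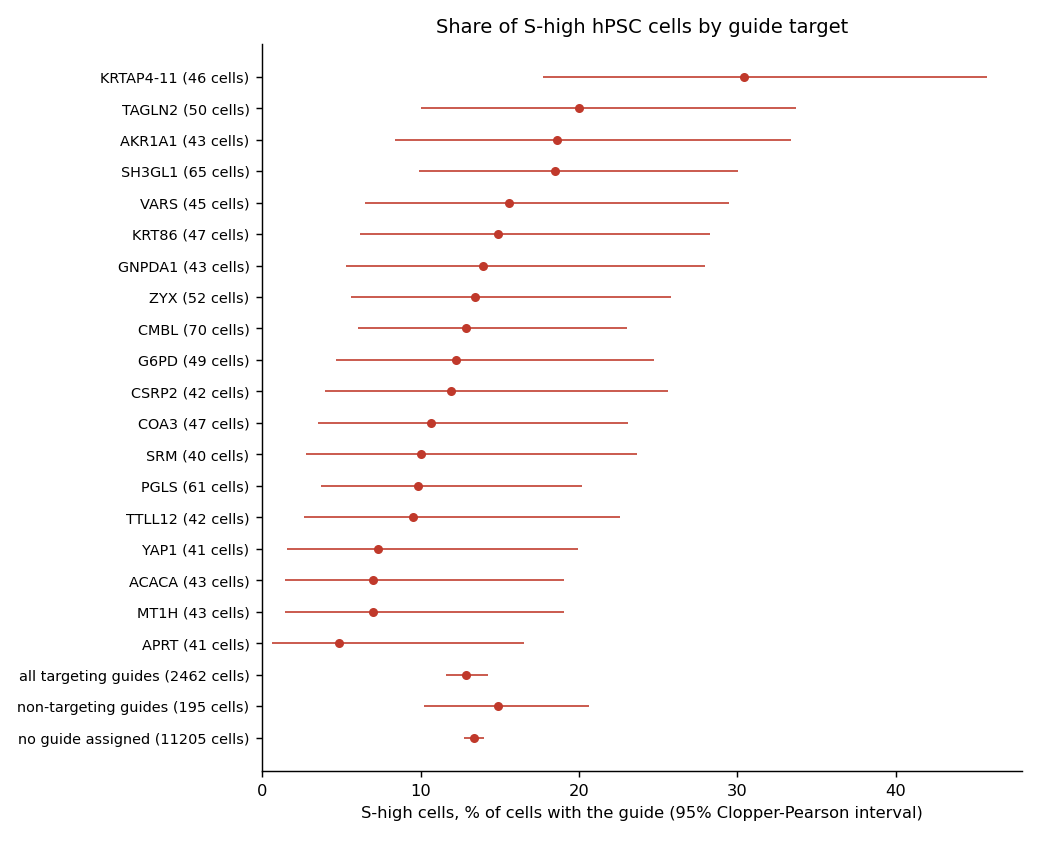
Percentage of S-high cells among hPSC cells with an assigned guide, for 19 targets with at least 40 cells, for all targeting guides (12.9%), for non-targeting guides (14.9%) and for cells with no guide assigned (13.4%), with 95% Clopper-Pearson intervals. KRTAP4-11 is at 30.4%, and 18 of 19 target intervals include 14.9%.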

How the data were processed

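Per the labels, single-cell 3' libraries of polyA RNA were made with 10x Genomics chemistry from 1 hPSC and 1 ectoderm culture, and guide barcodes were amplified from the same cDNA. The authors deposited UMI counts per gene and cell, and amplicon reads from which guide UMIs were counted here. STAR and STARsolo and the build GRCh38 are named in the submitters' processing notes, which give no versions. The hPSC table held 15333 barcodes and 83263830 UMIs, of which 1471 barcodes were removed (under 3000 UMIs, or 7 with over 20% mitochondrial UMIs). UMIs were summed per group of cells and given as CPM with exact intervals at 95%, which cover counting error only. A gene was counted at 20 CPM or more in either group and called at 1.5-fold, list members were measured at 5 CPM or more, and score genes stayed out of counts and lists. With 1 library per state, no test was possible. Thinning used seed 1, and the calculation was tested on simulated data.

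The members and lists were chosen with earlier results of these data known. Named genes were the score genes, the 15 highest and 15 lowest ratios, up to 6 list members with the largest and 2 with the smallest ratio, and markers; others are said to be chosen after their values were seen. Some list members that the rule names are not reported here. Cells were not clustered and doublets were not called. Python 3.11.15, numpy 2.4.6, scipy 1.17.1, pandas 2.3.3 and matplotlib 3.10.9 were used. Alternatives changed the filters on cells and genes, the score genes, the cuts, the scaling and the assignment of guides.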

Additional observations from a re-analysis of the deposited data

How the results depend on the processing

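Against 114 genes higher and 19 lower in hPSC and 133 and 16 in ectoderm, a 2-fold rule gave 24 and 0, and 25 and 0. A minimum of 50 CPM gave 35 and 2, and 43 and 5, and no filter on low values 2495 and 2150, and 2577 and 1991. Thinning each cell to 3000 UMIs gave 48 and 9, and 60 and 5. No condition on the M score gave 58 and 67, and 66 and 46, and the top and bottom 10% of S scores 263 and 57, and 282 and 55. MCM2 to MCM7 as the score gave 54 and 7, and 69 and 8. The other 10 genes gave 66 higher in hPSC, and 82 higher and 8 lower in ectoderm. Without mitochondrially encoded and ribosomal protein genes in the total, 44 genes were lower in hPSC and 37 in ectoderm. The cause was not tested.

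The number of S-high hPSC cells, 1845, was 1070 at 5000 UMIs or more, 2773 with no M score condition and 959 at the 10% tails. The S-high share among cells with targeting guides, 12.9%, was 15.1% at 5000 UMIs, 15.9% after thinning, 14.3% where a guide needed 80% of the amplicon UMIs, 19.1% with no M score condition and 6.54% at the 10% tails, where that of non-targeting guides, 14.9%, was 6.15%. Among recomputed list medians, 111 moved and 117 did not. The median for histones, 1.17, ran from 0.72 (MCM2 to MCM7) to 1.51 (10% tails), for origin licensing, 0.58, from 0.27 (5000 UMIs) to 0.74 (10% tails) and for p53 targets, 0.30, from 0.16 (MCM2 to MCM7) to 0.35. Of 39 named genes past 1.5-fold, 23 stayed past it after thinning, 24 with MCM2 to MCM7, 25 at 5000 UMIs and 28 with no M score condition. Their direction held in these settings, except that MKI67, 0.67, was -0.74 with no M score condition. No paired analysis was possible because each state has 1 library. Genes under 20 CPM rest on few UMIs, and their intervals are wide.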
